A study of Mus musculus with 4 samples.

Results

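Mouse blastocysts that had developed from activated oocytes without sperm (parthenogenetic) were compared with blastocysts from fertilized oocytes, both made tetraploid by fusion and both collected on day 4 (96 hours). Each condition was 1 pool of 30 embryos on 1 array, so nothing in this comparison has a replicate and every difference is a description of 2 arrays. The values compared were those of probe sets, other than array controls, with a signal of at least 500 on at least 1 of the 2 tetraploid arrays. This held for 10757 of 45037 probe sets (23.9%). Of these, 9481 carried 1 gene symbol and stood for 6254 genes, while 371 carried several symbols and 905 none. A signal of 500 or more was reached on both arrays by 8359 probe sets, on the parthenogenetic array alone by 1133 and on the fertilized array alone by 1265. The brightest signal of the probe set just outside the threshold was 499.987 and that of the one just inside was 500.011.

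The series holds 4 arrays, and the other 2 are the matching diploid embryos, parthenogenetic and fertilized, also day 4 pools of 30. In the submitters' design the tetraploid embryos stand in for a repeat of the diploid ones. A tetraploid embryo made by fusion keeps the parental origin of its genome and has its chromosome sets doubled, so a parthenogenetic tetraploid embryo holds maternal genomes only. Imprinted genes are read from 1 parental allele, which leaves a parthenogenetic embryo without the paternal copy of genes that are active on that copy alone. In female mouse blastocysts the paternal X chromosome is silenced in the trophectoderm, the outer layer that forms the placenta, by the noncoding RNA Xist. A Y chromosome can come only from sperm.

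The labels were checked against markers of the blastocyst. The trophectoderm factor Cdx2 had signals of 3785 on the parthenogenetic and 4711 on the fertilized tetraploid array. The pluripotency factor Nanog had 1154 and 2201, and Gata6, a factor of the primitive endoderm (the layer that lines the cavity), had 775 and 1458. All of these lay above the control floor, which is the 95th percentile of 27 bacterial control probe sets on an array: 150.3 on the parthenogenetic and 99.7 on the fertilized tetraploid array, 113 on the parthenogenetic and 145 on the fertilized diploid array. The Y-linked translation factor gene Eif2s3y had a signal of 3.66 on the parthenogenetic and 2437 on the fertilized tetraploid array, and 1.43 and 1608 on the diploid arrays. It was at least 16.2-fold lower in parthenogenetic tetraploid embryos. Uty, the other Y-linked gene that reached the threshold, encodes a relative of a histone demethylase and had signals of 153 against 533 and, in diploid embryos, 194 against 378.

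The parthenogenetic tetraploid array stood apart from the other 3. Over the 10757 probe sets its log2 signals correlated at 0.875 with the fertilized diploid, 0.885 with the fertilized tetraploid and 0.927 with the parthenogenetic diploid array, while the 3 correlations among the others were 0.928 to 0.955. These probe sets were chosen by their signals on the tetraploid arrays. Over all 45037 probe sets its correlations were, in the same order, 0.816, 0.834 and 0.824. Those among the others were then 0.844 to 0.871, so the gap was narrower. The fertilized arrays of different ploidy differed at least 2-fold at 452 probe sets (4.20%), and the parthenogenetic ones at 1086 (10.1%). The parthenogenetic tetraploid array also differed in some ratios between control probe sets along single transcripts. Its ratio of the middle to the 5' probe set was 13.7 for Actb, against 18.2 to 23.9 on the other arrays, and 4.66 for Gapdh, against 5.11 to 7.07. From the 3' end to the middle the ratios, 9.28 and 5.22, exceeded those of the other arrays. From the 3' to the 5' probe set its ratios were 127.19 for Actb and 24.32 for Gapdh. These lay within the range of the other arrays, 107.74 to 137.03 for Actb and 18.98 to 27.33 for Gapdh. RNA quality and ploidy effects cannot be told apart with 1 array per condition, and the part of either in the results was not tested.

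Between the tetraploid arrays, 722 probe sets (6.71%) were at least 2-fold higher and 892 (8.29%) at least 2-fold lower in parthenogenetic embryos. With 1 value per gene, from its brightest probe set, 408 genes (6.52%) were higher and 448 (7.16%) lower, and at 4-fold 64 (1.02%) were higher and 42 (0.672%) lower. Differences are log2(signal + 10), parthenogenetic minus fertilized, which understates the fold of dim genes. Where the dimmer signal lay at or below the control floor, the fold is given as "at least", with the floor in its place. Of all 6254 genes, 45.1% had a difference above 0 between tetraploid and 49.0% between diploid arrays. The median difference of all 6254 genes was -0.08, with the 5th percentile at -1.12 and the 95th at 1.14. When the arrays were scaled to a common median, that median was -0.68, a shift of -0.61, and the split became 110 genes higher and 1974 lower. Of all calls, 5.28% were then higher, against 47.7% with the deposited scaling. Directions below are therefore relative to the deposited scaling, and lists of genes are set beside the median of all genes. A common median scaling shifts nearly all genes alike. The gap between a list and all genes can therefore change little under it, mainly through which genes reach the threshold.

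The diploid arrays give a second view of the same genes. In that pair 261 genes (4.17%) were at least 2-fold higher and 196 (3.13%) lower. Of the 408 genes higher between tetraploid arrays, 112 (27.5%) were also at least 2-fold higher between diploid arrays, which is 42.9% of the 261. Of the 448 lower genes, 60 (13.4%) were also lower in the diploid pair, 30.6% of the 196. Signals on both parthenogenetic arrays lay above those on both fertilized arrays for 312 of the 408 (76.5%), beside 1263 of all genes (20.2%). They lay below for 303 of the 448 (67.6%), beside 1575 of all genes (25.2%). These shares use the arrays that chose the 408 and the 448, so they describe those genes only. Among the lower genes, the parthenogenetic arrays were themselves at least 2-fold apart for 172 (38.4%) and the fertilized ones for 15 (3.35%), and among the higher genes these numbers were 122 (29.9%) and 54 (13.2%).

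**Figure D1:**
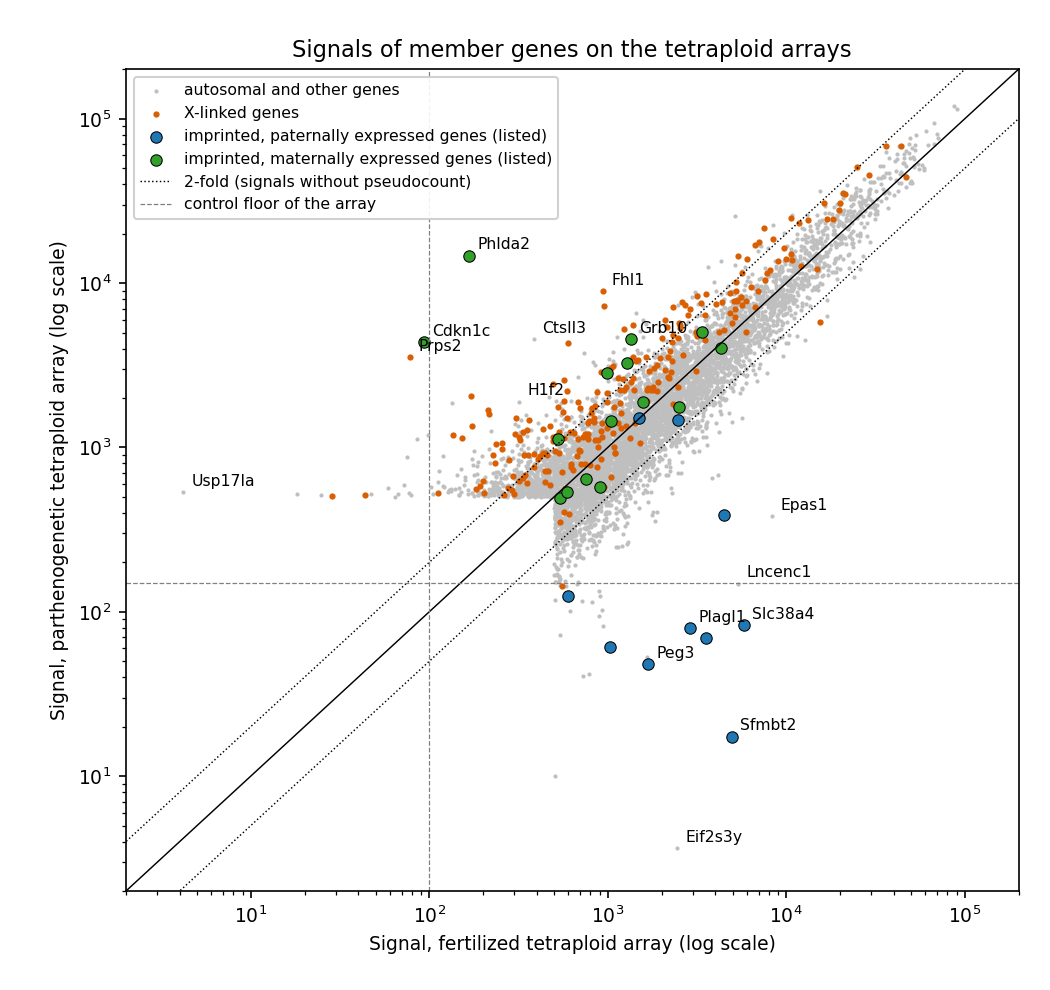
Signals of 6254 genes on the fertilized (horizontal, log scale) and parthenogenetic (vertical, log scale) tetraploid arrays, 1 point per gene, with X-linked and listed imprinted genes coloured, the 2-fold lines dotted and the control floors (99.7 and 150.3) dashed. Paternally expressed genes such as Sfmbt2 lie far below the diagonal, Phlda2 and Cdkn1c far above it, and X-linked genes mostly above it.

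Imprinted genes read from the paternal allele were among those farthest towards fertilized embryos. Sfmbt2, a Polycomb group gene needed for the placenta, had signals of 17.4 against 4946 in tetraploid and 7.07 against 3449 in diploid embryos. Slc38a4, a placental amino acid transporter, had 83.1 against 5781 in tetraploid and 4.29 against 3098 in diploid embryos. Gab1, an adaptor between growth factor receptors and ERK signalling, had 69.3 against 3564 in tetraploid and 35.02 against 3285 in diploid embryos. For these genes both parthenogenetic signals were below the floor, and in tetraploid embryos they were at least 32.9-fold, 38.5-fold and 23.7-fold lower. The zinc finger genes Plagl1 and Peg3 were at least 19.2-fold and 11.1-fold lower, with tetraploid signals of 79.4 against 2879.5 and of 48.3 against 1674. The Plagl1 probe set has a suffix that marks probes shared with other transcripts. Another Plagl1 probe set, with signals under 500, went the other way in tetraploid embryos (195 against 109, 0.78). In diploid embryos it had 7.39 against 220. Snhg14, a host transcript of small nucleolar RNAs, was at least 6.86-fold lower (61.00 against 1032), and Kcnq1ot1, the noncoding RNA that silences its neighbours in cis, at least 3.97-fold (124 against 596).

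Jade1, part of a histone acetyltransferase complex, differed from the others in that all signals of its brightest probe set were above the floor. They were 387 against 4459 in tetraploid and 595 against 3043 in diploid embryos, a log2 difference of -3.49. Its other probe sets, with signals under 500, had parthenogenetic tetraploid signals below the floor. In tetraploid embryos they had 4.02 against 275, 14.969 against 334 and 114 against 196. The last of these went the other way in diploid embryos, with 326 against 184. The list of paternally expressed genes has 35 names, of which 30 have a probe set and 10 reached a signal of 500, and 8 of these were at least 2-fold lower and 0 higher in parthenogenetic tetraploid embryos. A gene near zero in parthenogenetic embryos could enter only through the fertilized array, so this count partly follows from the threshold. The remaining members were Inpp5f, a phosphoinositide phosphatase, at -0.74, and Impact, a regulator of translation under amino acid shortage, at 0.01. The 8 lower genes had both parthenogenetic signals below both fertilized signals, beside 25.2% of all genes.

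Of 15 imprinted genes read from the maternal allele, 9 had a higher and 6 a lower value in parthenogenetic tetraploid embryos. Among all genes 45.1% had a higher value. Of the 15, 2 lay far from the rest. Phlda2, which restrains placental growth, had signals of 14678 against 167 in tetraploid and 2225 against 118 in diploid embryos. Its log2 difference was 6.37 between tetraploid and 4.13 between diploid arrays, where the fertilized signal was below the floor. Cdkn1c, an inhibitor of cyclin-dependent kinases that lies in the same imprinted domain, had 4374 against 93.6 in tetraploid and 439 against 159 in diploid embryos, at least 43.9-fold higher between tetraploid arrays. For both genes the parthenogenetic tetraploid signal was the highest of the 4, several-fold above the parthenogenetic diploid one, and both parthenogenetic signals exceeded both fertilized signals.

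Grb10, which dampens insulin and growth factor signalling, had nearly equal signals on the parthenogenetic arrays, 4567 against 1354 in tetraploid and 5154 against 845 in diploid embryos (1.75). Gnas, the stimulatory G protein subunit, had 2821 against 989.7 in tetraploid and 1845 against 1096 in diploid embryos. The phosphatase regulator Ppp1r9a stood at 1.34 and the tetraspanin Cd81 at 1.09. Of 39 listed genes 36 were on the array and 15 reached the threshold. Both parthenogenetic signals lay above both fertilized ones for 9 of the 15 and below them for 3, beside 20.2% and 25.2% of all genes. The 15 included 6 at least 2-fold higher and 0 lower, beside 6.52% and 7.16% of all genes. Phlda2 and Cdkn1c reached the threshold through the parthenogenetic array alone, so the count of higher genes partly follows from the threshold. The median of the 15 lay 0.56 above that of all genes, between 0.49 and 0.59 above it under the other scalings, and 1.18 above it with a threshold of 1000. Members that were less than 2-fold apart were the noncoding RNA Meg3 at 0.57, the receptor Igf2r, which clears IGF2, at 0.25, and the ubiquitin ligase Ube3a, imprinted in neurons, at -0.51.

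**Figure D2:**
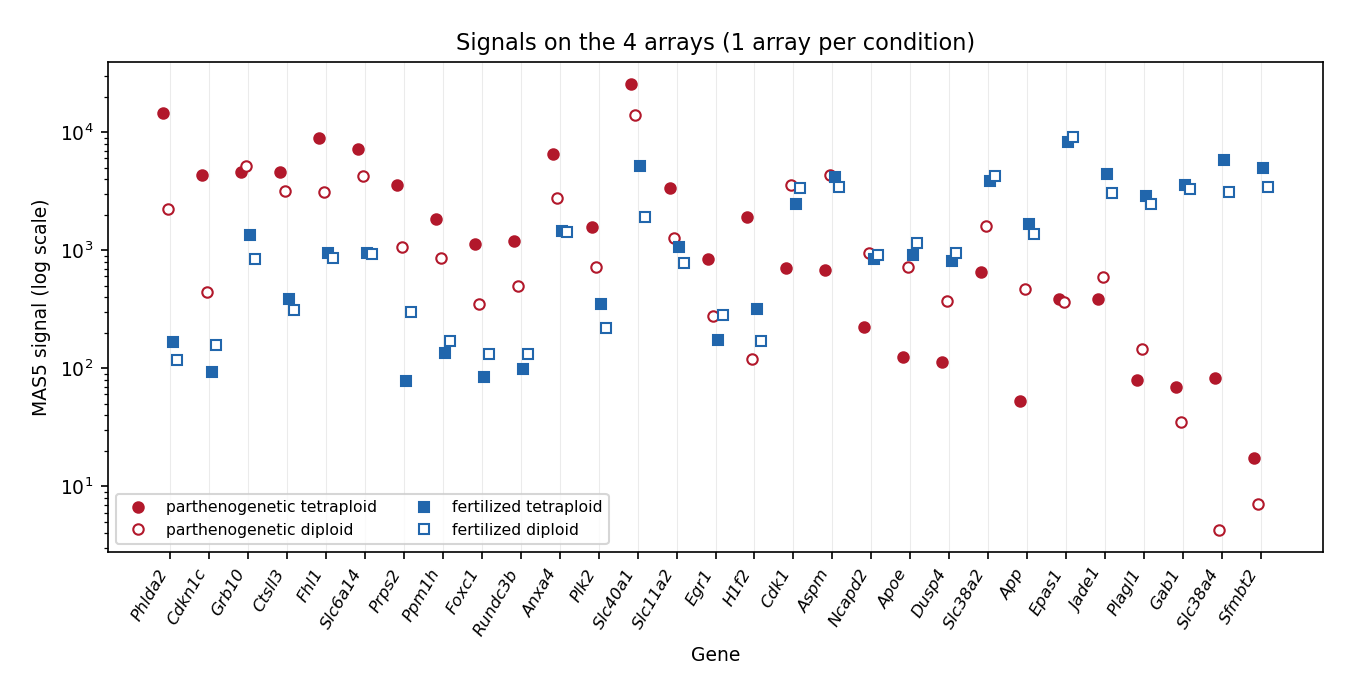
Signals (log scale) of selected genes on the 4 arrays, filled symbols for tetraploid and open ones for diploid embryos, red for parthenogenetic and blue for fertilized. For Cdk1, Aspm and Ncapd2 the parthenogenetic tetraploid signal alone lies below the other 3, whereas Sfmbt2, Slc38a4, Gab1 and Epas1 are low on both parthenogenetic arrays.

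X-linked genes lay above the rest of the genome. Of 245 X-linked genes, 220 (89.8%) had a higher value in parthenogenetic tetraploid embryos, 94 (38.4%) were at least 2-fold higher and 2 (0.816%) at least 2-fold lower. Among all genes these shares were 45.1%, 6.52% and 7.16%. The X-linked median was 0.84 (0.71 in the diploid pair), and it lay 0.92 above that of all genes (0.86 to 0.90 under the other scalings). Medians by autosome (19 of them) ran from -0.20 to -0.03, and between 2.91% and 7.12% of the genes of an autosome were at least 2-fold higher. X-linked genes made up 3.92% of the genes compared and 23.0% of the 408 higher ones, and 20 of the 64 genes at least 4-fold higher were on the X. At least 2-fold higher in both pairs were 39 of the 245 X-linked genes, beside 112 of all 6254 genes.

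Among the X-linked genes farthest from equality, Prps2, which makes the precursor of purine and pyrimidine nucleotides, had signals of 3562 against 78.1 in tetraploid and 1069.5 against 299 in diploid embryos, at least 35.7-fold higher, and a dimmer probe set gave 2.38. Fhl1, a LIM domain protein, had 8897 against 942 in tetraploid and 3143 against 853 in diploid embryos. The amino acid transporter Slc6a14 had 7229 against 957 in tetraploid and 4277 against 925 in diploid embryos. Both were high on the parthenogenetic arrays and higher on the tetraploid one, with fertilized signals that were nearly equal.

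Morc4, a chromatin ATPase, had signals of 2052 against 170.4 in tetraploid and 1629 against 194 in diploid embryos, and its fertilized signals were low but above their floors. The other X-linked genes among the 15 most higher of those with both signals above the floor were Pwwp3b at 3.04, 3830417A13Rik at 2.93, the endocytosis gene Reps2 at 2.89, 2010204K13Rik at 2.83, the ERK phosphatase Dusp9 at 2.83 and Klhl13, an adaptor of a mitotic ubiquitin ligase, at 2.82. Dusp9 was 1597 against 217 in tetraploid embryos, and further probe sets for it gave 1.79 and 1.87. Cask, a scaffold kinase of cell junctions, was at least 5.11-fold higher (510.0 against 28.5), and Sytl4, a vesicle docking protein, at least 5.16-fold (514 against 43.8).

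Other X-linked genes were bright on all 4 arrays. Eif2s3x, the X-linked partner of Eif2s3y, had signals of 24245 against 13176 in tetraploid and 21253 against 10178 in diploid embryos (0.88). The lysosomal membrane gene Lamp2 had 24975 against 10584 in tetraploid and 15406 against 7133 in diploid embryos (1.24), the nucleotide sugar transporter Slc35a2 was at 1.62, and Rlim, the ubiquitin ligase that activates Xist, was at 1.28. The X-linked genes that were at least 2-fold lower were Xist and Ccdc160. The brightest Xist probe set had signals of 5778 against 15529.6 in tetraploid and 6429 against 15357 in diploid embryos (-1.42), and its other probe sets that reached 500 gave -2.41 and -3.88. Ccdc160 had 144 against 556 in tetraploid and 964 against 654 in diploid embryos, low on the parthenogenetic tetraploid array alone.

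**Figure D3:**
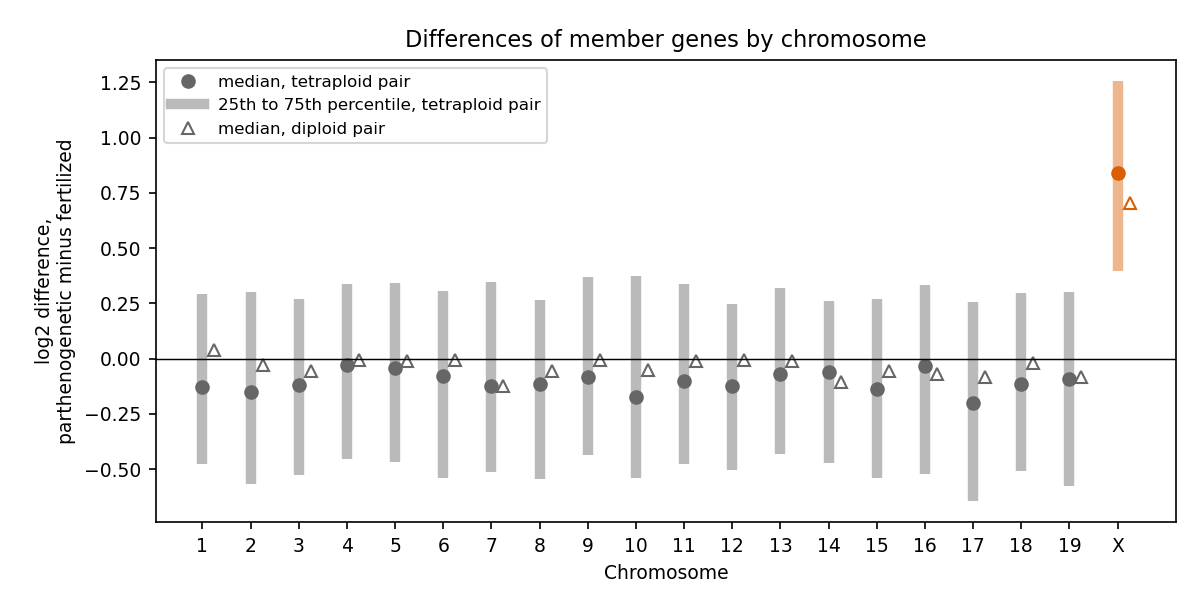
Log2 differences (parthenogenetic minus fertilized) of the genes of each chromosome: filled circles are medians of the tetraploid pair, bars run from the 25th to the 75th percentile of the same genes, and open triangles are medians of the diploid pair. The X chromosome, at 0.84 and 0.71, stands above the 19 autosomes, whose tetraploid medians run from -0.20 to -0.03.

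Outside the imprinted and X-linked genes, genes far towards parthenogenetic embryos included Ppm1h, a protein phosphatase, with signals of 1852 against 134 in tetraploid and 867 against 170.4 in diploid embryos (3.69). Ctsll3, a cathepsin of the placental cluster, had 4565 against 386 in tetraploid and 3175 against 314 in diploid embryos (3.53). Foxc1, a forkhead transcription factor, had 1124 against 85.01 in tetraploid and 353 against 133 in diploid embryos and was at least 11.3-fold higher, and its other probe set, below the threshold, was at least 2.98-fold higher. In each of these genes the parthenogenetic arrays were the higher pair and the fertilized signals were low or near the floor.

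Vav3, a guanine nucleotide exchange factor, was at least 8.77-fold higher (875 against 74.9) by its member probe set, and at least 2.71-fold by another, while the third gave no bound. Rundc3b was at least 11.95-fold higher, the kinase gene Prkca (protein kinase C alpha) at least 5.95-fold and the actin-bundling gene Pls1 at least 5.71-fold. The histone gene H1f2 had 1898 against 319 in tetraploid and 121 against 172 in diploid embryos (2.54), but a further probe set gave 0.93 and the third had its parthenogenetic signal below the floor, and histone genes are near-identical copies. Usp17la, from a multicopy family of deubiquitinases, had 533 against 4.18 in tetraploid and 390.2 against 944 in diploid embryos. Its fertilized arrays lay farther apart than its parthenogenetic ones.

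Several of the higher genes belong to iron transport. Slc40a1, the only known cellular iron exporter, had signals of 25455 against 5138 in tetraploid and 13888 against 1913 in diploid embryos (2.31), and a further probe set gave 2.52. Tfrc, the transferrin receptor that takes iron up, had 5951 against 1576 in tetraploid and 5708 against 1597 in diploid embryos (1.91), nearly the same on the arrays of 1 origin. Slc11a2, which moves iron out of endosomes, had 3372 against 1069 in tetraploid and 1278 against 781 in diploid embryos (1.65). Of 12 iron genes 3 were at least 2-fold higher and 0 lower, beside 6.52% and 7.16% of all genes. The median of the 12 lay 0.44 above that of all genes (0.44 to 0.48 over the scalings). The other 9, among them the iron chaperone Pcbp1 at 0.79, were less than 2-fold apart.

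All 6 annexins, calcium-dependent membrane binding proteins, had higher values with the deposited scaling, beside 45.1% of all genes. The median of the 6 lay 0.61 above that of all genes (0.50 to 0.61 over the scalings). Anxa4 had signals of 6553 against 1449 in tetraploid and 2789 against 1419 in diploid embryos (2.17), and Anxa5 had 1477 against 324 in tetraploid and 577 against 418 in diploid embryos (2.15). Both were brightest on the parthenogenetic tetraploid array and nearly equal on the fertilized arrays in the case of Anxa4. Integrins, the receptors for extracellular matrix, had 4 members, 2 of them at least 2-fold higher, Itgb1 (1.39) and Itgav (1.16), beside 6.52% of all genes. Sgms2, a sphingomyelin synthase of the plasma membrane, had 1379.9 against 301 in tetraploid and 1087 against 218 in diploid embryos (2.16).

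Targets of p53, the factor that halts the cell cycle after damage, had a median 0.18 above that of all genes (0.11 with quantile normalization, 0.02 with a threshold of 250 and -0.06 without a filter). Of 21 members 11 had a higher and 10 a lower value, beside 45.1% of all genes with a higher value. At least 2-fold higher were 4 and lower 0, beside 6.52% and 7.16% of all genes. Plk2, a stress-responsive kinase, had signals of 1577 against 348 in tetraploid and 721 against 218 in diploid embryos (2.15). Trp53inp1, which acts with p53, had 15728 against 6935 in tetraploid and 7212 against 6116 in diploid embryos (1.18), and the RNA-binding gene Zmat3 had 2605 against 1173 in tetraploid and 2002 against 703 in diploid embryos (1.14). Eda2r, a receptor of the tumour necrosis factor family, is X-linked and stood at 1.23. Plk2, Zmat3 and Eda2r were higher in both pairs, and Trp53inp1 by its brightest probe set was high on the parthenogenetic tetraploid array alone. Another Trp53inp1 probe set, with signals under 500, was higher in both pairs. It had 498 against 234 in tetraploid and 445 against 204 in diploid embryos. The inhibitor of p53, Mdm2, stood at -0.87.

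Immediate early genes, which respond within minutes to growth factors or handling, had a median 0.63 above that of all genes (0.56 to 0.63 over the scalings, 0.25 without a filter) and -0.15 in the diploid pair. Of 12 members 4 were at least 2-fold higher and 0 lower, beside 6.52% and 7.16% of all genes. The transcription factor Egr1 had signals of 849.8 against 174 in tetraploid and 279.7 against 281 in diploid embryos (2.22). The phosphatase Dusp1 had 5673 against 1631 in tetraploid and 2635 against 1083 in diploid embryos (1.79), and Fos, a subunit of AP-1, had 541 against 248 in tetraploid and 101 against 401 in diploid embryos (1.09). Egr1 and Fos were highest on the parthenogenetic tetraploid array, and Fos was lowest on the parthenogenetic diploid one, so its pairs differed in direction. Ccn2, a YAP target, had 768 against 348 in tetraploid and 442 against 647 in diploid embryos. Between the parthenogenetic arrays the median of the list was 0.76 higher in tetraploid embryos, and the part of handling or RNA quality was not tested.

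Genes of mitosis were lower as a group on the parthenogenetic tetraploid array. Cyclin-dependent kinase 1 with cyclin B drives entry into mitosis, and the products of other mitosis genes assemble the spindle, condense chromosomes and split the cell. Of 61 mitosis genes on the array 57 reached the threshold. Of these, 54 had a lower and 3 a higher value, beside 45.1% of all genes with a higher value. The 57 included 14 at least 2-fold lower and 0 higher, beside 7.16% and 6.52% of all genes. Their median was -0.79, against -0.08 for all genes, and the gap of -0.72 lay between -0.72 and -0.68 over the scalings. In the diploid pair the median was -0.08. The difference between the pairs was not tested. Tetraploid minus diploid, the list had a median of -0.75 on the parthenogenetic and -0.12 on the fertilized arrays. The parthenogenetic tetraploid array also differed in some of its Actb and Gapdh control ratios, and the part of RNA quality in these medians was not tested.

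The promoters of the 4 mitosis genes farthest below 0 that have 1 promoter in the table are shown, whether or not they hold a motif, because such genes are known to share a CCAAT box and a cell cycle homology region. Each is the 250 bases before the RefSeq start of the gene on GRCm38.p6, 5' to 3' on the gene's strand, with the motifs searched in capitals. These were CCAAT, which reads ATTGG on the other strand, and for the homology region TTTGAA, which reads TTCAAA there, and the palindrome TTCGAA. They lie at chr6:125191587-125191836 for Ncapd2, chr10:69352913-69353162 for Cdk1 and chr8:22185820-22186069 for Ckap2, on the minus strand, and at chr1:191821223-191821472 for Nek2, on the plus strand.
Ncapd2: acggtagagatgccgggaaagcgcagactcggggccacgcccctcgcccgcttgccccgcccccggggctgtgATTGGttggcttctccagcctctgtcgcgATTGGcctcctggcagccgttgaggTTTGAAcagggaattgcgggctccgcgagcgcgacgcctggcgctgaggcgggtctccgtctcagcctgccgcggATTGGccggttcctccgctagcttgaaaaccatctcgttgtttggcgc
Cdk1: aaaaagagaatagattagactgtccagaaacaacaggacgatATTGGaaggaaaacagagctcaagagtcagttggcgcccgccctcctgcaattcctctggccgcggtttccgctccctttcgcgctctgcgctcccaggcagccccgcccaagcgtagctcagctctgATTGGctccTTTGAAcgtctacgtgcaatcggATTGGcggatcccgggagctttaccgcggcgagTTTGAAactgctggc
Nek2: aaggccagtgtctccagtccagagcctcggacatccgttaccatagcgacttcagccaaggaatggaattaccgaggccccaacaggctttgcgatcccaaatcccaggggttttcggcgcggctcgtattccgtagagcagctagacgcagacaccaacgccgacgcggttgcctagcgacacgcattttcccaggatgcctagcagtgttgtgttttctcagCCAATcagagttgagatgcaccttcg
Ckap2: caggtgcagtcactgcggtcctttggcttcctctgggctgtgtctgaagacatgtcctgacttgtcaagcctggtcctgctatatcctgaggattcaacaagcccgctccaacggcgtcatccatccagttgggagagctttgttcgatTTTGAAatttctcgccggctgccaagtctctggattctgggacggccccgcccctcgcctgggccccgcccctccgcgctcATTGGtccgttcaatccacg

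The Ncapd2 window holds 3 CCAAT boxes and 1 homology region motif, the Cdk1 window 3 and 2, the Nek2 window 1 and 0, and the Ckap2 window 1 and 1. Of the 57 mitosis genes 46 had a promoter in the table, with 51 promoters, of which 36 (70.6%) held a CCAAT box, 21 (41.2%) the homology region motif and 18 (35.3%) both. Among all 32851 promoters of the table these shares were 33.8%, 17.1% and 6.02%, and among 6604 promoters of the genes compared they were 35.2%, 12.1% and 4.62%. Within the list, the 13 promoters of genes at least 2-fold lower held a CCAAT box in 11 cases (84.6%) and both motifs in 6, and the other 38 promoters in 25 (65.8%) and 12 (31.6%). A match is a description of letters and not of a bound site. DNA replication genes, with 51 promoters, held the homology region motif in 11.8% and both in 5.88%.

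Ncapd2, a condensin subunit, had signals of 226 against 851 in tetraploid and 947 against 910.3 in diploid embryos (-1.87). Cdk1 had 703 against 2486 in tetraploid and 3581 against 3404 in diploid embryos (-1.81). Nek2, a centrosomal kinase, had 1325 against 3569 in tetraploid and 2275 against 2402 in diploid embryos (-1.42). Ckap2, a spindle-stabilizing protein, had 591 against 1572 in tetraploid and 1538 against 886 in diploid embryos (-1.40). The parthenogenetic tetraploid signal was the lowest of the 4 in each, and the other 3 arrays lay close together for Ncapd2 and Cdk1.

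The spindle kinase Aurka (-1.39), the spindle regulators Dlgap5 (-1.36), Hmmr (-1.35) and Kif11 (-1.17), and the kinetochore genes Ndc80 (-1.28) and Cenpf (-1.14) were at least 2-fold lower too. So were Prc1 (-1.17), which bundles the midzone of the spindle, and Ube2c (-1.27), which feeds the anaphase-promoting complex. The members with the highest values were Zwint, a kinetochore protein, at 0.41 and securin, Pttg1, at 0.20. Both parthenogenetic signals lay below both fertilized ones for 18 of the 57 genes, beside 25.2% of all genes.

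Genes of cell division outside the list were among the 15 most lower of all genes above the floor. Aspm, which focuses spindle poles, had signals of 682 against 4139 in tetraploid and 4304 against 3413 in diploid embryos (-2.58), and another probe set gave -1.11. Cenpn, which binds centromeric nucleosomes, had 357 against 1845 in tetraploid and 2195 against 1961 in diploid embryos (-2.34), with -1.26 from another probe set. Cit, the citron kinase of cytokinesis, had 253 against 1199 in tetraploid and 981 against 1424 in diploid embryos (-2.20), and was at least 6.83-fold lower by another. In Aspm and Cenpn the 3 other arrays lay close together. Centrosome genes had a median of -0.38, with 5 of 25 at least 2-fold lower, beside 7.16% of all genes. Among the 5 were Haus2 (-1.51) and Haus1 (-1.05) of the augmin complex and Pcnt (-1.04). The centriole genes Poc1a (1.92) and Cep76 (1.32) were at least 2-fold higher.

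**Figure D4:**
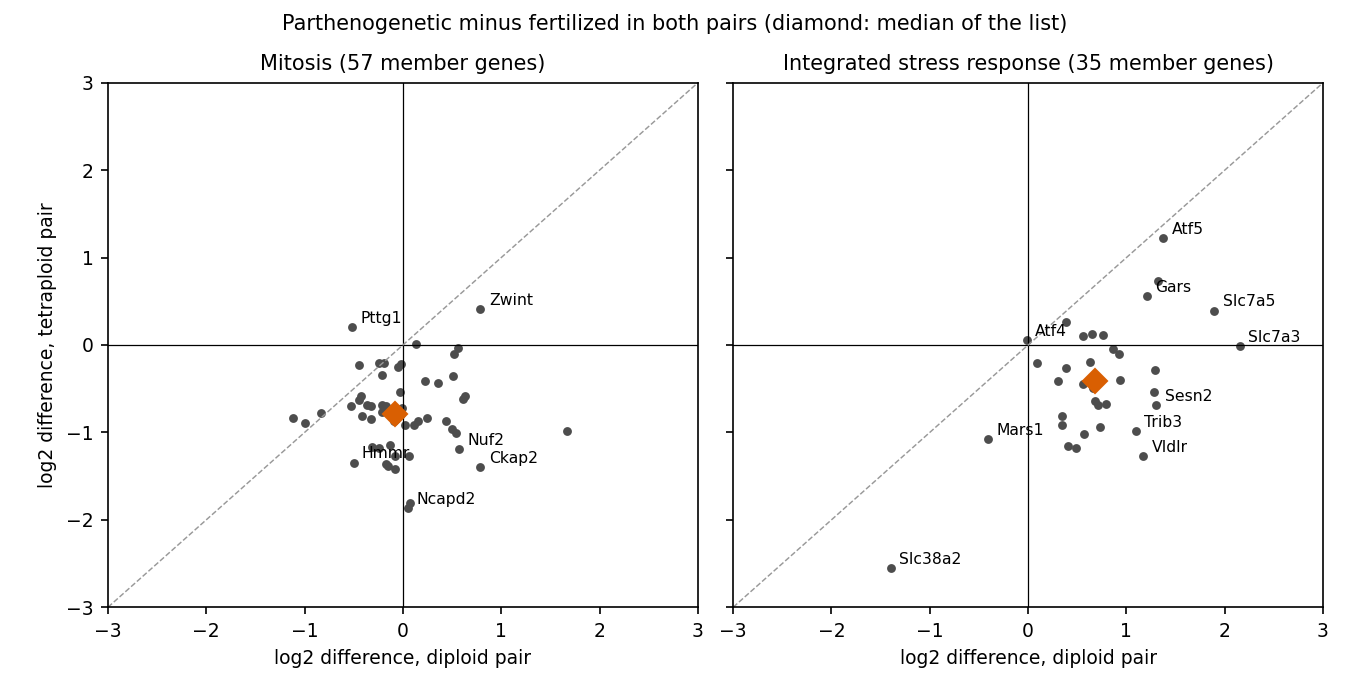
Log2 differences (parthenogenetic minus fertilized) in the diploid pair (horizontal) and the tetraploid pair (vertical) for 57 mitosis genes (left) and 35 genes of the integrated stress response (right), 1 point per gene, with an orange diamond at the medians and equality dashed. Mitosis genes centre at -0.08 and -0.79, and stress response genes at 0.68 and -0.42, so both groups lie mostly below the dashed line.

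DNA replication genes had medians of -0.48 between tetraploid and -0.28 between diploid arrays. Of 49 members 8 were at least 2-fold lower and 0 higher, beside 7.16% and 6.52% of all genes. Pola2, a subunit of the polymerase that primes DNA synthesis, had signals of 304 against 911 in tetraploid and 727 against 738 in diploid embryos (-1.55). Dut, which keeps uracil out of DNA, had 1400.0 against 4063 in tetraploid and 2371 against 4038 in diploid embryos (-1.53). Dut was lower on both parthenogenetic arrays, and Pola2 on the tetraploid one alone. The clamp loader subunit Rfc4 (-1.41), the clamp Pcna (-1.16), thymidine kinase Tk1 (-1.34), the fork protein Wdhd1 (-1.28) and the helicase subunit Gins4 (-1.46) were further members. Gins4, with 192 against 546 in tetraploid and 289 against 723 in diploid embryos, was lower in both pairs.

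Regulators of the G1 phase were mixed, with 3 of 16 at least 2-fold lower and Cdkn1c higher, beside 7.16% and 6.52% of all genes. Skp2, which targets the inhibitor p27 for degradation, had signals of 1435 against 4953 in tetraploid and 3341 against 3679 in diploid embryos (-1.78). Cdk4, the kinase of the D cyclins, had 897 against 2096 in tetraploid and 1994 against 2888 in diploid embryos (-1.22), and cyclin D3, Ccnd3, had 367 against 1130.2 in tetraploid and 582 against 1049.8 in diploid embryos (-1.60). By these probe sets all of them were lower on both parthenogenetic arrays, with Skp2 nearly level between the diploid arrays. Another Skp2 probe set had 686 against 1765 in tetraploid and 1043 against 1987 in diploid embryos. Another Cdk4 probe set had 611 against 936 in tetraploid and 1167 against 1265 in diploid embryos, so there the origins overlapped. The gene for p27, Cdkn1b, stood at 0.84, and cyclin D1, Ccnd1, at 0.44 between tetraploid and 1.02 between diploid arrays.

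The integrated stress response pointed different ways in the pairs. In this pathway the factor ATF4 raises transporters, synthetases and enzymes that supply amino acids. Of 35 members 6 were at least 2-fold lower and 1 higher between tetraploid arrays, beside 7.16% and 6.52% of all genes. The median was -0.42 (-0.34 relative to all genes, -0.39 to -0.32 over the scalings). Between diploid arrays the median was 0.68, and 32 of the 35 genes had a higher value there, against 9 between tetraploid arrays. Among all genes 49.0% had a higher value between diploid and 45.1% between tetraploid arrays. Tetraploid minus diploid, the median of the list was -0.78 for the parthenogenetic and 0.34 for the fertilized arrays. Aminoacyl-tRNA synthetases, some of them on the same list, had medians of -0.26 and 0.41. The difference between the pairs was not tested.

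Atf4 itself was level, with signals of 14921 against 14389.5 in tetraploid and 14659.5 against 14791 in diploid embryos. Trib3, a pseudokinase induced by ATF4, had 1107 against 2207 in tetraploid and 1977 against 919.8 in diploid embryos (-0.99 between tetraploid and 1.10 between diploid arrays). The lipoprotein receptor Vldlr had 343 against 844 in tetraploid and 1363 against 599.6 in diploid embryos (-1.27 and 1.17). Both were high on the parthenogenetic diploid and fertilized tetraploid arrays, so the origins overlapped.

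Slc38a2, the amino acid transporter that responds to starvation, was instead low on both parthenogenetic arrays, with 649 against 3858 in tetraploid and 1605 against 4237 in diploid embryos (-2.55), and a further probe set gave -2.23, while the third, with signals under 500, gave 0.90. Slc7a3, a transporter of cationic amino acids, had 1417 against 1427 in tetraploid and 4501 against 1002 in diploid embryos, high on the parthenogenetic diploid array alone. Asns, asparagine synthetase, stood at -0.91 and 0.35, the proline synthesis gene Aldh18a1 at -1.18 and 0.49, and Cth, which makes cysteine, at -1.16 and 0.41. Atf5, a relative of Atf4, was higher in both pairs (1.23 and 1.37).

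Of the markers of the blastocyst lineages, those of the trophectoderm had a median near that of all genes and those of the inner lineages lay below it. In bulk pools, fewer cells of a type and less RNA per cell cannot be told apart. Of 21 trophectoderm markers 2 were at least 2-fold higher and 1, Dab2, lower, beside 6.52% and 7.16% of all genes, and the median was -0.01. Besides Cdx2 (-0.32), the factors Eomes (0.36), Gata3 (-0.26) and Tead4 (-0.97) and the keratins Krt8 (0.46) and Krt18 (-0.45) were less than 2-fold apart. Plac1, an X-linked gene of the trophoblast surface, had signals of 17873 against 7065 in tetraploid and 14829.5 against 5375 in diploid embryos (1.34), and the keratin Krt7 had 1426 against 650.0 in tetraploid and 893 against 590.2 in diploid embryos (1.12). The summed signal of the 29 markers on the array was 220587 on the parthenogenetic and 213962 on the fertilized tetraploid array, 218213 and 196300 on the diploid ones.

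Epiblast and pluripotency markers had a median of -0.60 between tetraploid and -0.21 between diploid arrays, and the gap to all genes lay between -0.63 and -0.52 over the scalings. Of 18 members 3 were at least 2-fold lower and 0 higher, beside 7.16% and 6.52% of all genes. Sall1, a zinc finger factor, had signals of 265 against 1291 in tetraploid and 457 against 1262 in diploid embryos (-2.24). Prdm14, which protects the naive state, had 168 against 503 in tetraploid and 831 against 491 in diploid embryos (-1.53), and Fgf4, the growth factor that instructs the primitive endoderm, had 683 against 1875 in tetraploid and 2167 against 1644 in diploid embryos (-1.44). Sall1 was lower on both parthenogenetic arrays, whereas Prdm14 and Fgf4 were low on the tetraploid one alone. Of the core factors, Nanog stood at -0.93, Sox2 at -0.93 and Pou5f1 at 0.23. The summed signal of 28 markers was 99136 against 115779 in tetraploid and 116206 against 125173 in diploid embryos.

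Primitive endoderm markers had a median of -0.34 between tetraploid and -0.12 between diploid arrays, and the gap to all genes was -0.27 (-0.32 to -0.16 over the scalings). Of 18 members 12 had a lower and 6 a higher value, beside 45.1% of all genes with a higher value. At least 2-fold lower were 3 and higher 0, beside 7.16% and 6.52% of all genes. Apoe, a lipoprotein made by this layer, had signals of 125 against 908 in tetraploid and 729 against 1145 in diploid embryos, at least 6.04-fold lower between tetraploid arrays. The endocytic adaptor Dab2, also listed for the trophectoderm, had 7852 against 16945 in tetraploid and 17998 against 18194 in diploid embryos (-1.11). Runx1 stood at -1.40, Gata6 at -0.90, Sox17 at -0.76 and the receptor Pdgfra at -0.57. Basement membrane genes of the list were mixed. Col4a2 stood at 0.92 (834 against 436 in tetraploid and 1148 against 1494 in diploid embryos) and Nid1 at 0.76, whereas Col4a1 stood at -0.59 and Lama1 at -0.28. Lamc1 stood at 0.50 and Lamb1 at 0.34, but another probe set gave -0.61 for Lamc1 and -0.46 for Lamb1. Apoe and Dab2 were lowest on the parthenogenetic tetraploid array. The summed signal of 31 markers was 76794 on that array and 89411 to 112141 on the other 3.

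FGF and ERK signalling links these lineages, and 4 of its 18 members were at least 2-fold lower and 0 higher, beside 7.16% and 6.52% of all genes, with Gab1 and Fgf4 among the 4. The phosphatase Dusp4, a feedback inhibitor of ERK, had signals of 114 against 811 in tetraploid and 374 against 956 in diploid embryos, at least 5.40-fold lower between tetraploid arrays. The feedback inhibitor Spry1 had 489.7 against 1090.4 in tetraploid and 1173 against 1151 in diploid embryos (-1.14). Dusp4 was lower on both parthenogenetic arrays and Spry1 on the tetraploid one. Dusp6, another feedback phosphatase, stood at -0.70.

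Of placental markers 5 of 25 reached the threshold and 2 were at least 2-fold higher, beside 6.52% of all genes. These were Ctsll3 and the X-linked homeobox gene Rhox5, which had signals of 1237 against 533 in tetraploid and 2902 against 1512 in diploid embryos (1.20). For other possible sources of RNA, 1 gene each reached the threshold among 26 oocyte, 15 cumulus, 15 sperm, 17 fibroblast and 8 markers of the 2-cell stage. Their summed signals on the parthenogenetic tetraploid array were 3767, 4733, 4657, 3207 and 1730, against 2624, 4628, 5772, 4413 and 593 on the fertilized tetraploid array. The genes that reached the threshold carried part of these sums. Nr5a2 gave 3238 against 3605 of the cumulus sum, and Odf2, also listed for the centrosome, 3667 against 5076 of the sperm sum. Fn1 gave 1481 against 2798 of the fibroblast sum, Ooep 711 against 965 of the oocyte sum and Usp17la 533 against 4.18 of the 2-cell sum.

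Among the genes most lower in parthenogenetic tetraploid embryos, several are neither imprinted by the list used nor part of cell division. Epas1, the hypoxia-inducible factor HIF2 alpha, had signals of 383 against 8337 in tetraploid and 365 against 9153 in diploid embryos (-4.41), a gap of similar size in both pairs. The long noncoding RNA Lncenc1 had 148 against 5355 in tetraploid and 56.3 against 3008 in diploid embryos, at least 35.6-fold lower. Mbnl2, a splicing regulator, had 102 against 926 in tetraploid and 155 against 1065 in diploid embryos, at least 6.17-fold lower, and at least 14.9-fold by another probe set. In each, both parthenogenetic arrays were low.

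App, the amyloid precursor gene, had 52.8 against 1659.5 in tetraploid and 467 against 1378 in diploid embryos, at least 11.04-fold lower, with its parthenogenetic arrays well apart. Its other 3 probe sets did not reach the threshold, and their fertilized tetraploid signals were below the floor, as were 2 of the 3 parthenogenetic ones, so they give no direction for those 2 and at least 1.70-fold higher for the third. Acss1, which makes acetyl-CoA in mitochondria, had 407 against 1894 in tetraploid and 712 against 1805 in diploid embryos (-2.19). The RNA polymerase I subunit Polr1b stood at -2.15, the kinase Mark1 at -2.13, the histone variant gene H2az2 at -2.08 and Chchd1 at -2.15. The genes Tnrc18 (81.5 against 942 in tetraploid and 755 against 550.5 in diploid embryos) and Klf15 (40.7 against 729 in tetraploid and 679 against 1018 in diploid embryos) were low on the parthenogenetic tetraploid array alone.

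Genes for mitochondrial ribosomes had a median below 0 in both pairs. Of 66 members 56 had a lower and 10 a higher value between tetraploid arrays, beside 45.1% of all genes with a higher value. The medians were -0.53 between tetraploid and -0.41 between diploid arrays. At least 2-fold lower were 9 and higher 0, beside 7.16% and 6.52% of all genes. Both parthenogenetic signals lay below both fertilized ones for 38 of the 66, beside 25.2% of all genes. Mrpl24 had signals of 2849 against 7800.1 in tetraploid and 4513 against 5956 in diploid embryos (-1.45), Mrps31 had 445 against 1267 in tetraploid and 816 against 1425 in diploid embryos (-1.49), and Mrpl2 had 346 against 1289 in tetraploid and 1191 against 957 in diploid embryos (-1.87). Mrpl2 was low on the parthenogenetic tetraploid array alone.

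Other housekeeping machinery lay nearer to the median of all genes. Subunits and assembly factors of respiratory complex I had medians of -0.19 and -0.30 over 38 genes, with Ndufa4 at -1.18. Complexes III and IV had -0.13 and -0.39 over 17, and ATP synthase -0.18 and -0.27 over 16. Proteasome genes had -0.32 and -0.18 over 34, with the catalytic subunit Psmb2 at 952 against 2992 in tetraploid and 2578 against 2174 in diploid embryos (-1.64). The 48 genes with symbols of cytosolic ribosomal proteins had -0.08 and -0.20. Those at least 2-fold higher among them, Rps6ka6 (2.16) and Rps6ka3 (1.99), are X-linked kinases of ribosomal protein S6 and not ribosomal proteins.

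**Figure D5:**
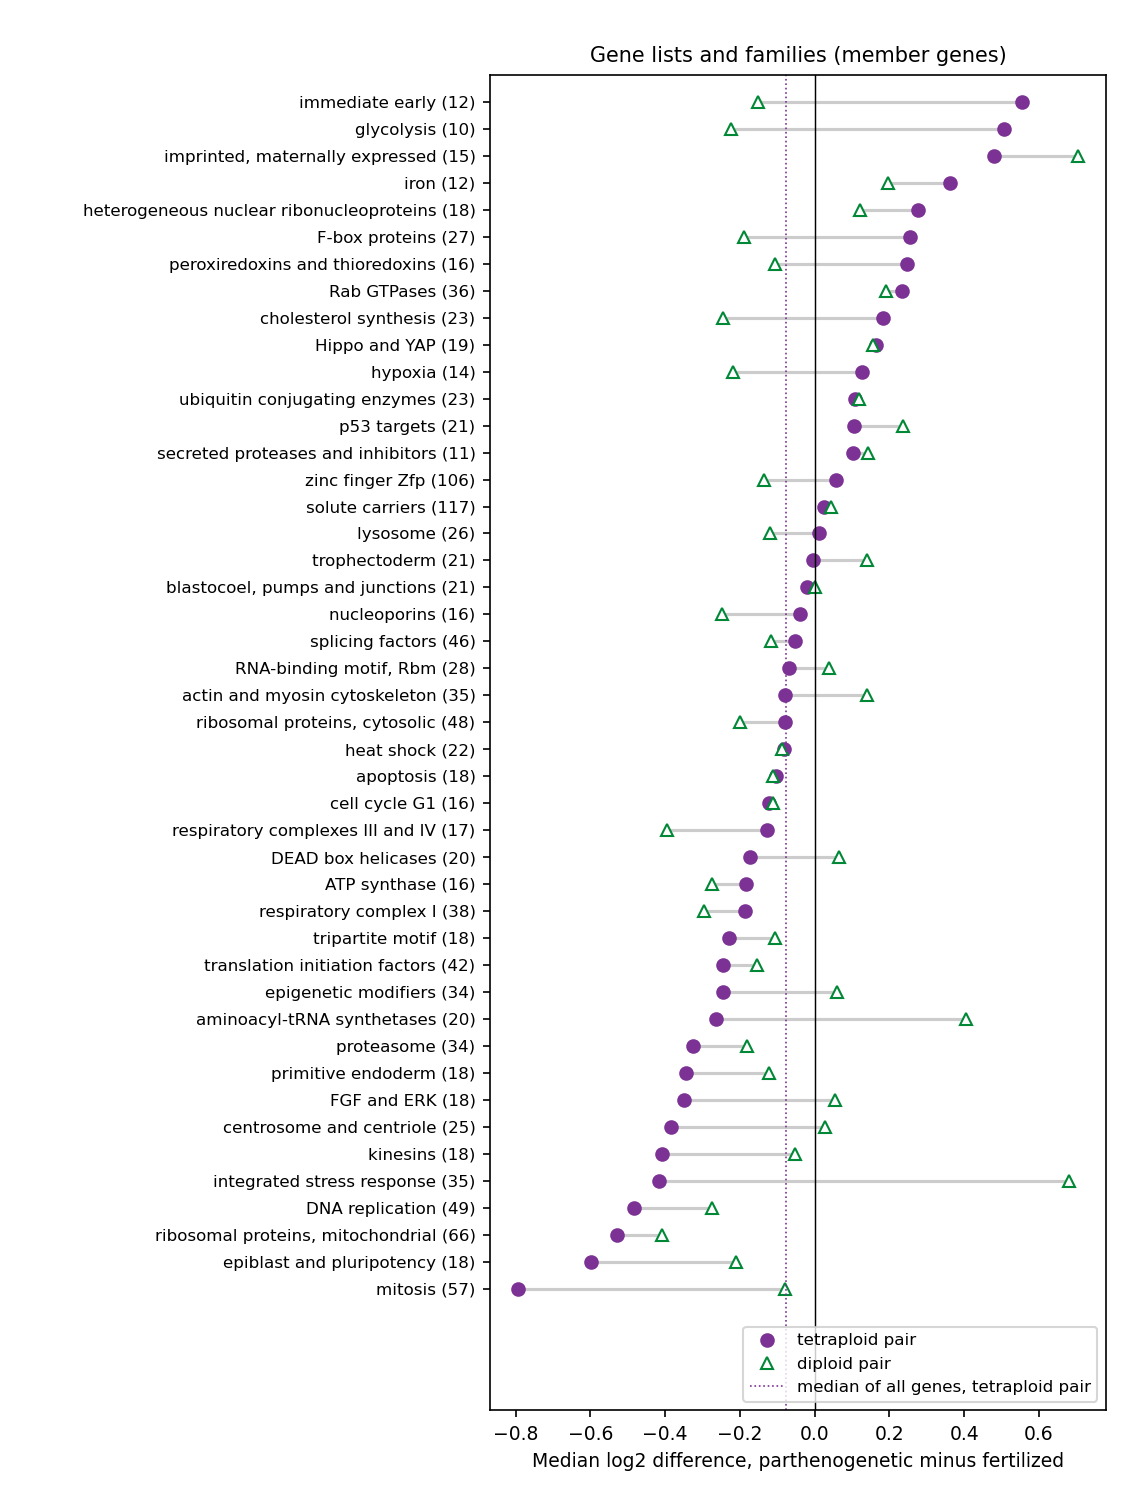
Median log2 difference (parthenogenetic minus fertilized) of the genes of each list with 10 or more and each family with 16 or more genes compared, without the paternally expressed genes and the amino acid transporters, with the number of genes in brackets, for the tetraploid pair (purple circles) and the diploid pair (green triangles), joined by a grey line. Of the lists shown, mitosis (-0.79) and epiblast markers (-0.60) lie at the low end and immediate early genes (0.55) at the high end, and the integrated stress response has the longest line (-0.42 to 0.68). With a common median scaling the tetraploid medians shift down with that of all genes, to which the dotted line refers.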

How the data were processed

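RNA from 4 pools of 30 mouse blastocysts was amplified in 2 cycles and hybridised, 1 pool per array, per the labels' protocols. The authors deposited 1 intensity per probe set and array, a MAS5 signal on a linear scale, with MAS5 named in the submitters' processing notes. Its trimmed mean was 500.0 on each array, so the deposited scaling was kept. For the probes, a genome build was not given in the sources used here. Probe-level files and scan dates were not used here.

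Of 45101 probe sets, 64 controls were left out, a signal of 500 or more on at least 1 tetraploid array was required, and log2(signal + 10) was compared in Python 3.11.15 with pandas 2.3.3 and numpy 2.4.6. A gene's value is that of its member probe set with the highest mean log2 signal. Symbols came from the platform annotation, and 9468 of the 9481 probe sets with 1 symbol matched RefSeq genes of GRCm38.p6, which gave chromosomes. With 1 array a side there is no test, SD or batch check. The number of arrays limits the precision. The scripts were tested on simulated data.

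The members and lists were chosen with earlier results of these data known. Named genes were the 15 farthest from 0 in each direction above the control floor, the 10 with the brightest signal in each direction where the dimmer one was at or below it, the 4 farthest from 0 in each list and the first 3 of each marker list. The rule also took the 8 in each direction whose pairs lay farthest apart and the 10 in each direction with the largest difference shared by both pairs. Other genes were named for their roles after their values were seen. Alternatives were other pseudocounts, thresholds, scalings and the mean over probe sets.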

Additional observations from a re-analysis of the deposited data

Results flagged for a closer look

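Among the 6254 genes, 15 were at least 2-fold apart in opposite directions in the tetraploid and the diploid pair. Each pair rests on 1 array a side, so the difference between the pairs was not tested, and a dim or single deviating array is enough to place a gene here. The values below are the tetraploid minus the diploid log2 difference.

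Of these, 8 genes were lower in parthenogenetic embryos between tetraploid arrays and higher between diploid arrays: Lmnb2 (nuclear lamin B2, -3.46), Mapkap1 (a subunit of mTOR complex 2, -3.32), Zxdc (-2.63), Rsl24d1 (ribosome biogenesis, -2.59), Sema6c (a semaphorin, -2.56), Vldlr (-2.44), Aaas (a nuclear pore protein, -2.41) and Adprhl2 (-2.15). Lmnb2 had signals of 121 against 567 in tetraploid and 696 against 273 in diploid embryos, and Mapkap1 had 118 against 609 in tetraploid and 815 against 391 in diploid embryos. In both the parthenogenetic diploid and fertilized tetraploid arrays were the high ones, and the parthenogenetic tetraploid signal was below the control floor.

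The other 7 went the opposite way: Usp17la (6.51), Depp1 (4.95), Aif1l (3.40), Fos (2.98), Top3b (a DNA topoisomerase, 2.78), Sec14l3 (2.54) and Hmbox1 (2.11). Depp1 had 577 against 102 in tetraploid and 325 against 1974 in diploid embryos, so its fertilized arrays lay farthest apart. The integrated stress response was the list of 5 or more genes whose medians had opposite signs and were both beyond 0.29, the median absolute difference between the fertilized arrays, with -0.42 in the tetraploid and 0.68 in the diploid pair.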

How the results depend on the processing

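The comparison was repeated under 8 alternatives. With a threshold of 250 in place of 500 there were 1277 genes at least 2-fold higher and 665 lower (65.8% of the calls higher, against 47.7%), with 1000 there were 209 higher and 270 lower, and without a filter 4157 higher and 2360 lower. With the arrays scaled to a common median the counts were 110 higher and 1974 lower, against 408 and 448 with the deposited scaling. The median of X-linked genes lay 0.92 above that of all genes and 0.60 above it without a filter. Pseudocounts of 1 and 50, quantile normalization and the mean over a gene's probe sets kept both counts within 1.5 times. Of named genes at least 2-fold apart, 0 changed sign under any alternative, but 35 of the 72 higher ones that a common median scaling retains were then less than 2-fold higher. That scaling shifts nearly all genes alike, by about -0.61. It could therefore hardly reverse a 2-fold difference or move a list against all genes. Medians of lists relative to all genes moved by more than 0.29 for 0 of 61 lists under both scalings, for 7 without a filter, 4 at each other threshold (of 56 lists at 1000), 2 with the mean over probe sets, 1 with a pseudocount of 50 and 0 with 1. Paternally expressed genes were among them (-4.29, -0.23 without a filter, -2.20 at 250), and their median, -4.36, was -3.49 with genes below the floor at their bound.

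No paired analysis was possible because the tetraploid comparison has 1 array on each side, so no array was left out either, and a fit of origin over both ploidies was not run. Signals near the control floor (17 of the 408 higher and 29 of the 448 lower genes have a dimmer signal at or below it) give bounds only. Of genes with further member probe sets, all of them had the same sign for 65 of 72 higher and 80 of 103 lower genes, and all of them were at least 2-fold apart for 36 of each.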

Other observations

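Families outside the pathways above held single genes with large values. Of 117 solute carriers 16 were at least 2-fold higher and 5 lower, and of 106 zinc finger genes with a Zfp symbol 11 and 5, beside 6.52% and 7.16% of all genes. Glycolysis genes had a median 0.58 above that of all genes (0.32 with a common median scaling and 0.24 with a threshold of 1000), with Pkm, the last enzyme of the pathway, at 1.26 and the X-linked Pgk1 at 0.98. Heat shock genes had a median of -0.08, with the chaperone Hspa1b at 1.34, the small chaperone Cryab at 1.04 and the co-chaperone Stip1 at -1.77.

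Cholesterol synthesis genes had a median 0.26 above that of all genes (0.15 with a threshold of 250 and 0.02 without a filter). The sterol reductase Tm7sf2 had signals of 116 against 713 in tetraploid and 299.8 against 422 in diploid embryos and was at least 4.74-fold lower between tetraploid arrays, while Dhcr7, which acts at the end of the pathway, stood at 1.25 and Mvd at 1.13. Of the tubulins, Tuba1a had 16832 against 7209 in tetraploid and 11021 against 4449.6 in diploid embryos (1.22) and Tubb2a had 1474 against 609 in tetraploid and 819.9 against 752 in diploid embryos (1.26). Laptm4b, a lysosomal membrane gene, had 4747 against 11413 in tetraploid and 4717 against 12117 in diploid embryos (-1.26), with little difference between the ploidies of an origin. Txnip, an inhibitor of thioredoxin, stood at 1.77 and 1.28, and Htra1, a secreted protease, at 1.66 and 0.83. The epigenetic regulators Uhrf1, which maintains DNA methylation, and Ehmt1, a histone methyltransferase, stood at -1.07 and -1.03 between tetraploid arrays, against -0.20 and -0.22 between diploid arrays.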
